A study of Mus musculus with 4 samples.

Results

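The regulatory neighbourhoods of 4 genes through which osteoblasts signal to osteoclasts, *Tnfsf11*, *Tnfrsf11b*, *Csf1* and *Il34*, were examined in ATAC-seq data. A region of the deposited count table was taken as a member if it overlapped one of these genes or the 100 kb on either side of it (GENCODE M21 genes, build GRCm38). This gave 182 of the 255864 regions in the table, with 40 at *Tnfsf11*, 31 at *Tnfrsf11b*, 56 at *Csf1* and 55 at *Il34*. ATAC-seq tags accessible DNA with a transposase, so the number of reads in a region measures how open its chromatin is.

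The cells were primary osteoblasts of C57BL/6 mice aged 3 days, and the study's methods describe their release from the parietal bone of the skull by collagenase and dispase, followed by culture. The controls were wild type (WT). The TCKO mice carried Prx1-Cre together with Tet1 fl/fl, Tet2 fl/fl and Tet3 fl/fl, so that all the TET dioxygenases, which oxidise 5-methylcytosine, could be lost where the Cre acts. Prx1 drives the Cre in limb mesenchyme and in part of the skull mesenchyme, so skull cells outside that domain keep the floxed genes. The labels do not state whether the WT mice carried the floxed alleles or the Cre. The labels list 2 samples per genotype, while a protocol text among them speaks of 3 repeats, and the count table holds 1 merged column per genotype. The spread between replicates could therefore not be measured, no test of genotype was possible, and every difference given here compares 2 merged libraries with no replicate check.

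Osteoclasts, the bone-resorbing cells, arise from the macrophage lineage and depend on osteoblast-lineage cells for their differentiation. *Tnfsf11* encodes RANKL, the ligand that binds RANK on osteoclast precursors, and *Tnfrsf11b* encodes osteoprotegerin, a secreted decoy receptor that captures RANKL. *Csf1* encodes M-CSF, the growth factor on which the precursors depend for survival, and *Il34* encodes a second ligand of the M-CSF receptor. The transcription of *Tnfsf11* in osteoblastic cells is known to be controlled by enhancers far upstream of the gene, where vitamin D, parathyroid hormone and cytokine signals act.

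WT reads over all regions summed to 56898657 and TCKO reads to 34608167, so TCKO counts were multiplied by 1.64 before a ratio was taken. The ratio is given as log2 of TCKO over WT, with 1 count added to each genotype for a single region and none added for sums, and its 95% Wilson interval covers counting error only. Promoter regions were found at all 5 osteoblast markers examined, at 0 of 3 T cell markers, at 4 of 6 macrophage or osteoclast markers and at 3 of 3 endothelial markers. *Ptprc* and *Tyrobp* were the macrophage markers with none. The summed promoter ratio was -0.14 (95% interval -0.22 to -0.07) for the osteoblast markers, 0.49 (0.32 to 0.66) for the macrophage or osteoclast markers and 0.72 (0.56 to 0.88) for the endothelial markers. The promoter regions of a gene held 93 to 1768 WT counts in the osteoblast list, 36 to 297 at the 4 macrophage or osteoclast genes that had one, and 57 to 399 in the endothelial list.

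The sequences that carry the main contrasts are printed here, 5′ to 3′. The first pair gives the 250 bases before the start of *Tnfsf11* and of *Csf1*, since the first had the highest promoter ratio among the genes and the second a ratio near 0. Both were read from RefSeq promoter sequences of GRCm38.p6, which matched 2 of the 4 genes and not *Tnfrsf11b* or *Il34*. The others show the largest fall and the largest rise of the *Tnfsf11* window, the neighbouring pair near 76 kb upstream that went opposite ways, and the largest falls at *Csf1* and *Il34*. They were read from the GRCm38 genome on the plus strand, and are the whole region or, for regions longer than 300 bp, its central 300 bases.
Tnfsf11 promoter, chr14:78308044-78308293, minus strand: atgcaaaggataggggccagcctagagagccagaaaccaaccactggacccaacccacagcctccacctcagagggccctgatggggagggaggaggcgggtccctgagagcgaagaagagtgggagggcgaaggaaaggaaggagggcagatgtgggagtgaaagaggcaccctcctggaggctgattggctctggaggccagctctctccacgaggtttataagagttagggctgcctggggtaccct
Csf1 promoter, chr3:107760470-107760719, minus strand: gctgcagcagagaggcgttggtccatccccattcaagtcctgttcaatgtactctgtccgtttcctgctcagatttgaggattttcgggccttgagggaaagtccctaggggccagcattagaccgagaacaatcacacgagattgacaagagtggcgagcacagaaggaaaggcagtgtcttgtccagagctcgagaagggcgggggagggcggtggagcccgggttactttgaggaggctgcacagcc
Tnfsf11 intron, 1.5 kb after the start, chr14:78306476-78306679, plus strand: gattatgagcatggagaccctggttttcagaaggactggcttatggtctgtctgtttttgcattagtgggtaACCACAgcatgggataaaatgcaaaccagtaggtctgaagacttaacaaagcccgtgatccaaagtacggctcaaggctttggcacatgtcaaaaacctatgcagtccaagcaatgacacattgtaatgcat
Tnfsf11, 60.4 kb after the start, chr14:78247485-78247764, plus strand: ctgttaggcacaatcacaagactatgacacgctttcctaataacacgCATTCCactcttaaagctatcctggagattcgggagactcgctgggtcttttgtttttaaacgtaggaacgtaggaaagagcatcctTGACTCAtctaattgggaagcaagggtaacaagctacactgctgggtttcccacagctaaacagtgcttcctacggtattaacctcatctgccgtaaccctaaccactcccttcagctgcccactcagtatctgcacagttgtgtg
Tnfsf11, 75.5 kb upstream, chr14:78383410-78383709, plus strand: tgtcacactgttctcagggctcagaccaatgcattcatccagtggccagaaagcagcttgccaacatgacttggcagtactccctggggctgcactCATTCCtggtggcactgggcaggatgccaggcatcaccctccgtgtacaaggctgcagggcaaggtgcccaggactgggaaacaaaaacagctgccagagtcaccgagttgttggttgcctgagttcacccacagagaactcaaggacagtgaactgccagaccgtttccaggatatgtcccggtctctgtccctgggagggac
Tnfsf11, 76.5 kb upstream, chr14:78384428-78384727, plus strand: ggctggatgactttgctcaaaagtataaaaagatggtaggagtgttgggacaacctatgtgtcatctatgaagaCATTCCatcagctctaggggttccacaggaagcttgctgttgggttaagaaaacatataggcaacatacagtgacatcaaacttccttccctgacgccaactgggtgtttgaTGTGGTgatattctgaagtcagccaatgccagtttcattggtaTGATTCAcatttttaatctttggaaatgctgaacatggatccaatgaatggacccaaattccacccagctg
Csf1, 62.0 kb upstream, chr3:107822353-107822491, plus strand: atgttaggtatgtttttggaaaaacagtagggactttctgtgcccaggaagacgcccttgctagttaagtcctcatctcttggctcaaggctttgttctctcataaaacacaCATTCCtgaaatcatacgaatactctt
Il34 window, Vac14 intron, 142.6 kb after the Il34 start, chr8:110663204-110663503, plus strand: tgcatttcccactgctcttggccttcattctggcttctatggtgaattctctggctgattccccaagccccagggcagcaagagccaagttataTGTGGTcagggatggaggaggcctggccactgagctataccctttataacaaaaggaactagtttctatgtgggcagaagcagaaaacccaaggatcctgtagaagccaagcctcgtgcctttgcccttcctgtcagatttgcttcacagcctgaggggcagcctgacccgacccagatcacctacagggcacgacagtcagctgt

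Capitals mark the motifs searched on both strands, which were the Runt core TGTGGT, the bZIP motif TGANTCA, the cyclic AMP response element TGACGTCA, the TEAD motif GGAATG, and a direct repeat of GNTCA with 4 bases between. On the other strand the TEAD motif reads CATTCC and the Runt core ACCACA, and no match printed here overlapped another. Neither printed promoter held any of them. Among 32851 RefSeq promoters of the same 250 bases, 14.0% held the Runt core, 6.75% the bZIP motif, 1.55% the cyclic AMP response element, 12.6% the TEAD motif and 0.548% the direct repeat. The 250 printed bases held 4 CpG dinucleotides, the sites that carry 5-methylcytosine, at *Tnfsf11* and 10 at *Csf1*. The accessible regions that span these starts, whose ratios are given below, were alike in CpG density. They held 34 CpGs at *Tnfsf11* (7.16 per 100 bp) and 62 at *Csf1* (7.07 per 100 bp). The region in the *Tnfsf11* intron held a Runt core and 2 CpGs, and the one 60.4 kb after the start held a bZIP motif, a TEAD motif and 8 CpGs.

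Over their whole windows the 4 genes fell on both sides of 0, with the RANKL and osteoprotegerin genes above and the genes for both M-CSF receptor ligands below. The *Tnfsf11* window held 7857 WT counts and 5650 TCKO counts, which is a ratio of 0.24 (0.19 to 0.29), or 1.18-fold. The *Tnfrsf11b* window held 5207 and 3410, a ratio of 0.11 (0.04 to 0.17). The *Csf1* window held 23490 and 12241, a ratio of -0.22 (-0.25 to -0.19). The *Il34* window held 22665 and 10013, a ratio of -0.46 (-0.50 to -0.43), which left TCKO at 0.726 of the WT level. None of these intervals held 0, and none overlapped another.

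Where these values lie among genes was seen from the windows of 20814 protein-coding genes made in the same way, which had a median ratio of -0.02 and ran from -0.22 at the 5th percentile to 0.51 at the 95th. *Tnfsf11* lay at the 88.48th percentile, *Tnfrsf11b* at the 77.81st, *Csf1* at the 4.61st and *Il34* at the 0.42nd. After loess had removed the dependence of the ratio on read depth per region, the percentiles were, in the same order, 89.47, 68.63, 5.87 and 0.48. Windows of neighbouring genes share regions. *Vac14*, *Mtss1l*, *Cog4*, *Fuk* and *Sf3b3* lay in the *Il34* window, their own windows had ratios of -0.47 to -0.25, and 1 of these 5 was at or below *Il34*. *Ahcyl1* lay in the *Csf1* window, and its own window had a ratio of -0.05, nearer to the median than that of *Csf1*. No other protein-coding gene lay in the windows of *Tnfsf11* and *Tnfrsf11b*.

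**Figure D1:**
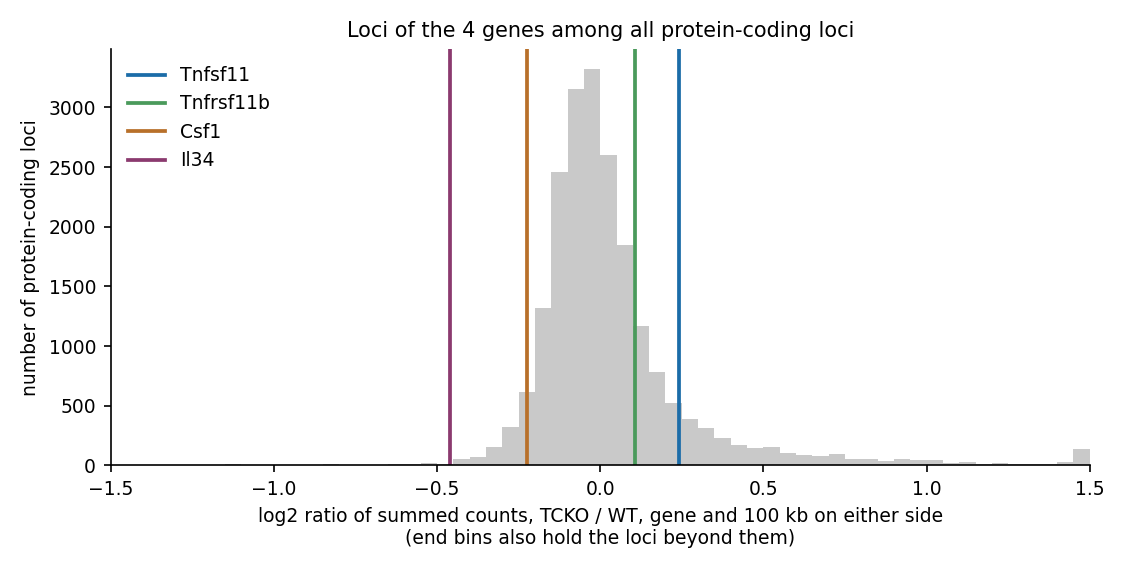
Number of protein-coding loci (y axis) by the log2 ratio of summed counts, TCKO over WT, of the gene and 100 kb on either side (x axis), with a vertical line for each of the 4 genes. *Il34* at -0.46 and *Csf1* at -0.22 lie in the lower tail, and *Tnfrsf11b* at 0.11 and *Tnfsf11* at 0.24 lie to the right of the peak.

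The difference between a pair of windows does not depend on a constant scaling, because the factor cancels. All 6 pairs were compared. *Tnfsf11* exceeded *Il34* by 0.70 (0.64 to 0.76), a ratio of ratios of 1.63, and exceeded *Csf1* by 0.46 (0.41 to 0.52). *Tnfrsf11b* exceeded *Il34* by 0.57 (0.50 to 0.64) and *Csf1* by 0.33 (0.26 to 0.40). The gap between the ligand and its decoy, *Tnfsf11* minus *Tnfrsf11b*, was 0.14 (0.06 to 0.21), the smallest of the 6, and *Csf1* exceeded *Il34* by 0.24 (0.19 to 0.28). For these 100 kb windows, the neighbours in the order *Tnfsf11*, *Tnfrsf11b*, *Csf1*, *Il34* therefore differed beyond counting error, while the spread between animals is unknown.

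At the level of single regions the change was mostly modest. A fall of at least 2-fold in TCKO was seen at 10 of the 182 regions, which is 5.49% beside 4.51% of all regions in the table. Only 7 were at least 2-fold higher, which is 3.85% beside 12.3% of all regions. The median ratio was -0.07 for the members and 0.06 for all regions, and the members held more reads, with a median of 164.5 WT counts against 86. Both peak lists held 113 of them, 60 were called in WT only and 9 in TCKO only. The WT list is also the longer one as a whole, with 316241 summits against 227919 in TCKO. The shares of all regions called in 1 genotype only were not computed, so these counts are not read as a trait of the members. Of the 10 lower regions, 5 lay in the *Csf1* window, 4 in the *Il34* window and 1 in the *Tnfsf11* window. Of the 7 higher regions, 4 lay in the *Tnfrsf11b* window and 1 in each of the others. The 7 higher regions were sparse, with 12 to 84 WT counts.

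The counts past the fold depended on the cutoff and on the scaling. At a fold of 1.5, 43 members were lower (13.2% of all regions were) and 22 higher (23.3%). At a fold of 3, 0 were lower (0.784% of all regions) and 3 higher (4.03%). With the whole interval past a fold of 2, 2 were lower (0.654%) and 3 higher (3.82%), and both of the lower ones were in the *Vac14* introns of the *Il34* window. With 10 counts added in place of 1, 7 were lower (2.82%) and 4 higher (9.57%). Without scaling, 68 were lower (25.6%) and 2 higher (3.17%), and with the depth taken from the peak caller's background, 59 were lower (19.9%) and 3 higher (3.91%). The share of members that were higher was below that of all regions under each of these settings, from 1.1% without scaling to 12.1% at a fold of 1.5.

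**Figure D2:**
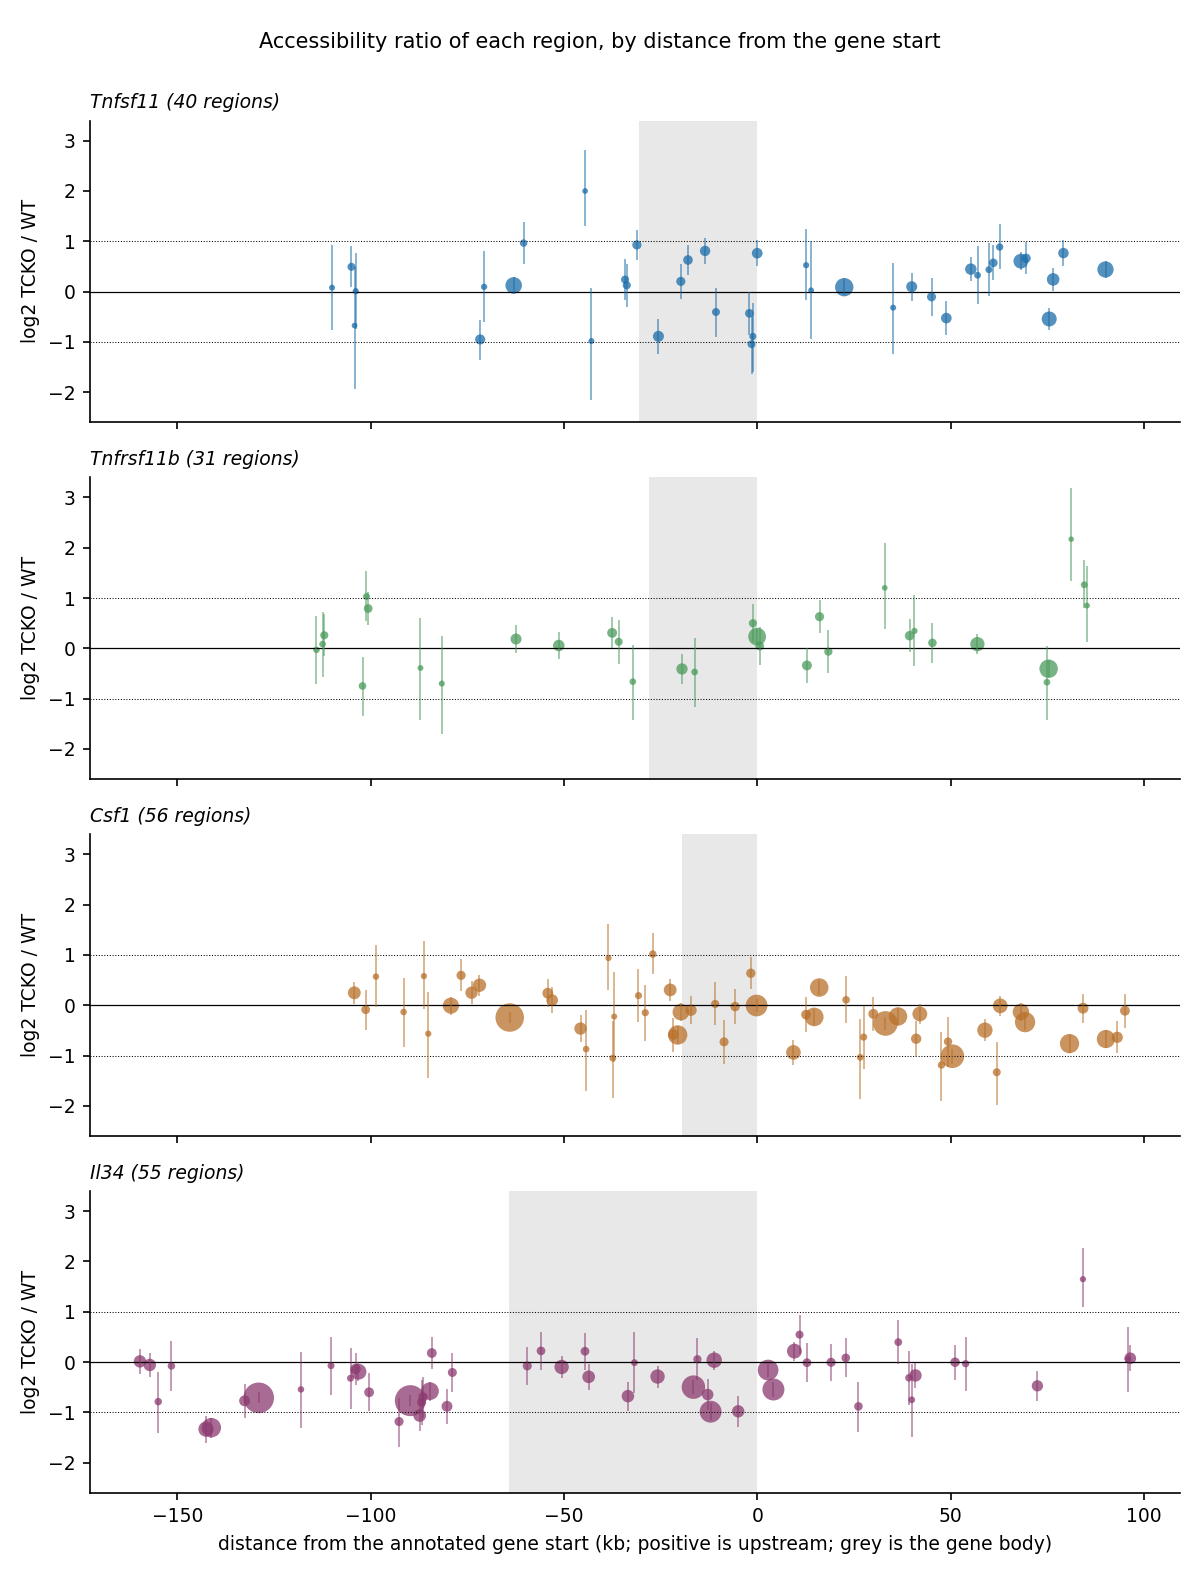
Log2 ratio of TCKO over WT of each of the 182 regions (y axis) by distance from the annotated gene start in kb (x axis, positive is upstream, grey marks the gene body), with 1 panel per gene, point area growing with the WT count, vertical lines for 95% intervals from counting error and dotted lines at a fold of 2. The large points of *Il34* and those upstream of *Csf1* lie mostly below 0, and those upstream of *Tnfsf11* beyond 50 kb lie mostly above.

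*Tnfsf11* (ENSMUSG00000022015) lies on the minus strand of chromosome 14, from 78277445 to 78308043. Its promoter region, chr14:78307802-78308276, spans the start and the beginning of the first exon. It held 244 WT counts and 252 TCKO counts, nearly equal before scaling, and its ratio was 0.76 (0.51 to 1.02). RPKM here scales a count by the length of the region and by the genotype's total count over all regions, not by all sequenced reads. In these units the level was 9.03 in WT and 15.3 in TCKO. Among the 22831 regions within 1 kb of a protein-coding start, the WT level lay at the 29.39th percentile and the TCKO level at the 58.51st, and the ratio lay at the 95.37th percentile, where the median promoter had -0.07. The peak caller gave it a fold over local background of 5.84 in WT and 7.29 in TCKO. The summed promoters of the macrophage or osteoclast markers, with 624 WT counts and 533 TCKO counts, had a ratio of 0.49 (-0.23 without scaling), and those of the endothelial markers, with 641 in each genotype, had 0.72. *Adgre1*, one of the macrophage markers, had -0.06 (-0.83 to 0.71) at its promoter, and the median window ratio of that list was 0.01. Their part in the *Tnfsf11* value was not tested. In merged libraries a change in the share of a cell type and a change within cells cannot be told apart.

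The intron just after this promoter went the other way. The regions 1.1, 1.5 and 2.0 kb after the start held 68, 103 and 138 counts in WT and 22, 30 and 62 in TCKO, and all 3 were lower. Their sum, 309 against 114, gave a ratio of -0.72 (-1.03 to -0.41). The one 1.5 kb after the start, whose sequence is printed above, was the largest fall of the window at -1.05 (-1.64 to -0.48), and it was called in WT only. The promoter exceeded these 3 by 1.49 (1.08 to 1.89), a comparison chosen after the values were seen. Deeper in the gene the introns held both directions, with 263 WT counts and 86 TCKO counts at 25.5 kb after the start, a ratio of -0.89 (-1.25 to -0.54), and 226 against 241 at 13.5 kb, a ratio of 0.81 (0.55 to 1.07). The 8 regions of the gene body outside the promoter summed to 1249 and 776, a ratio of 0.03 (-0.10 to 0.16).

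The enhancers of *Tnfsf11* are known to lie about 16, 22, 60, 69 and 76 kb upstream, and regions within 2 kb of each place were examined. No region lay within 2 kb of 16 kb. The 22 kb place held 1 broad region of 1318 bp, the one with most WT counts in the window, with 864 WT counts and 558 TCKO counts and a ratio of 0.09 (-0.07 to 0.24), an interval that held 0. The 60 kb place held 2 regions that summed to 200 and 176, a ratio of 0.53 (0.24 to 0.82). The 69 kb place held 2 regions with 696 and 650 counts, a ratio of 0.62 (0.46 to 0.77), the highest of these places.

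The 76 kb place was split between neighbouring regions. The region 75.5 kb upstream held 550 WT counts and 229 TCKO counts, a ratio of -0.55 (-0.77 to -0.32), and its fold over local background was 7.41 in WT and 4.15 in TCKO. The region 76.5 kb upstream held 363 and 261, a ratio of 0.24 (0.01 to 0.47), and its fold over background was 7.32 and 7.30. Of their printed central 300 bases, the first held a TEAD motif and 4 CpGs, and the second held a TEAD motif, a Runt core, a bZIP motif and 1 CpG. Together the 7 enhancer regions summed to 2673 and 1874, a ratio of 0.20 (0.12 to 0.29), close to the 0.24 of the window as a whole. The fold over local background did not always follow the count ratio. At 61.1 kb upstream, with a ratio of 0.57, it was 10.34 in WT and 9.21 in TCKO. At 69.5 kb, with a ratio of 0.66, it was 6.69 and 5.01, and at 68.2 kb, with a ratio of 0.60, it was 7.69 and 7.92.

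Beyond these places, the region 90.1 kb upstream had the highest fold over background of the window, 20.3 in WT and 19.5 in TCKO. It held 660 and 544 counts and a ratio of 0.44 (0.27 to 0.60). The largest rise among regions with at least 50 counts lay 60.4 kb after the start, beyond the end of the gene, with 83 WT counts and 99 TCKO counts and a ratio of 0.96 (0.55 to 1.39), just inside the fold of 2. The 1 region past that fold lay 44.5 kb after the start and held 19 and 48 counts.

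**Figure D3:**
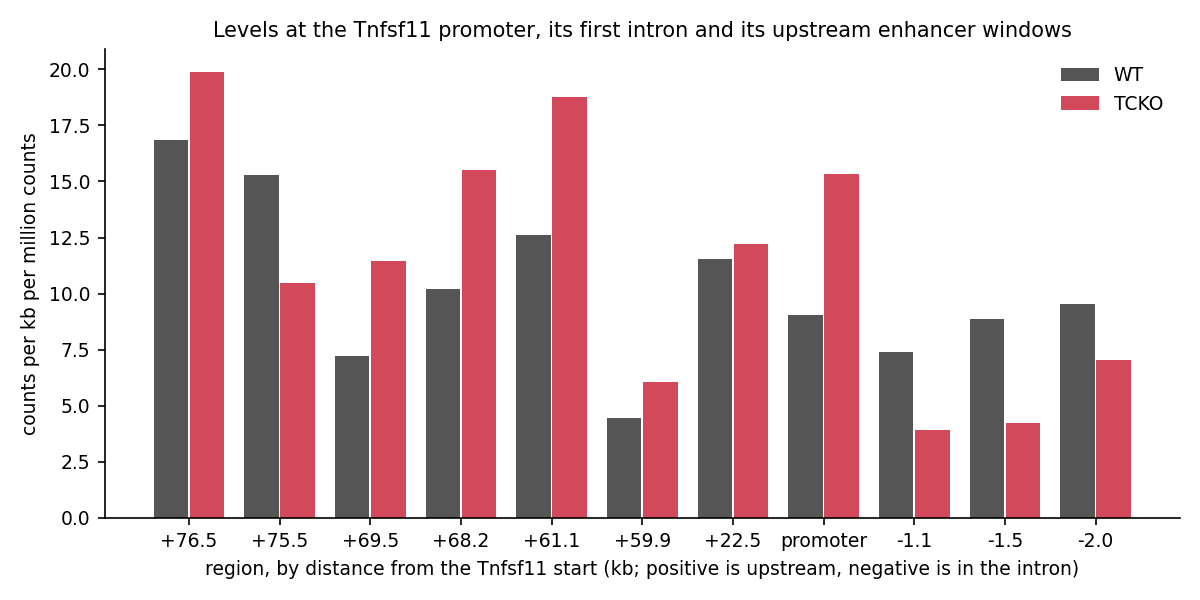
RPKM, the counts per kb of region scaled to the genotype's total count over all regions (y axis), in WT and TCKO. The x axis holds the *Tnfsf11* promoter, the 3 intron regions after it and the 7 regions of the upstream enhancer places, by distance from the start in kb. TCKO is the taller bar at the promoter and at 6 of the 7 enhancer regions, and the shorter one at the 3 intron regions and 75.5 kb upstream.

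*Tnfrsf11b* (ENSMUSG00000063727) lies on the minus strand of chromosome 15, from 54250619 to 54278484, and its window had the ratio nearest to 0 with total-count scaling, though not without scaling or with the peak caller's background. Its main promoter region, chr15:54278045-54278882, held 804 WT counts and 575 TCKO counts, a ratio of 0.23 (0.08 to 0.39). A second promoter region 0.6 kb upstream held 140 and 88, a ratio of 0.05 (-0.34 to 0.43). The level of the main region was 16.9 RPKM in WT and 19.8 in TCKO, at the 61.99th and 72.98th percentiles of promoter regions. The summed *Tnfsf11* promoter exceeded the summed *Tnfrsf11b* promoter by 0.56 (0.26 to 0.85) and that of *Csf1* by 0.84 (0.55 to 1.12). The summed *Tnfrsf11b* promoter exceeded that of *Csf1* by 0.28 (0.09 to 0.47). These promoter comparisons were chosen after the values were seen.

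Away from its promoter the *Tnfrsf11b* window held both directions. The region with most WT counts lay 75.4 kb upstream, nearest to the start of *Colec10*, a collectin gene, with 869 WT counts and 399 TCKO counts and a ratio of -0.41 (-0.58 to -0.23). Without the 5 regions nearest to *Colec10*, the remaining 26 gave 4188 and 2840, a ratio of 0.16 (0.09 to 0.23). The largest fall, 102.1 kb after the start, held 89 and 32, a ratio of -0.75 (-1.34 to -0.18), and was called in WT only. Among regions with at least 50 counts in either genotype, the largest rise, 84.6 kb upstream, held 59 and 87, a ratio of 1.26 (0.80 to 1.75). The sparser region 81.2 kb upstream held 12 and 35 and had the highest ratio of all 182 members, 2.17 (1.33 to 3.19). The upstream flank as a whole had a ratio of 0.04 (-0.05 to 0.13), the gene body -0.12 (-0.34 to 0.10) and the downstream flank 0.21 (0.09 to 0.32).

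*Csf1* (ENSMUSG00000014599) lies on the minus strand of chromosome 3, from 107741048 to 107760469, and its promoter and its upstream flank differed. The main promoter region, chr3:107759864-107760740, held 1235 WT counts and 748 TCKO counts, a ratio of -0.01 (-0.14 to 0.12). Its level was 24.8 RPKM in WT and 24.6 in TCKO, the highest in both genotypes among the promoter regions of the 4 genes. A region 8.6 kb after the start, within 1 kb of the start of another *Csf1* transcript, held 156 and 57, a ratio of -0.73 (-1.17 to -0.30), and was called in WT only.

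The 25 upstream regions of *Csf1* summed to 13306 WT counts and 6237 TCKO counts, a ratio of -0.38 (-0.42 to -0.33). The downstream flank gave -0.06 (-0.11 to -0.01) and the gene body outside the promoters 0.14 (-0.03 to 0.30). Of the 5 regions at least 2-fold lower, 4 lay upstream and 1 downstream, and a strong region 20.6 kb after the start, just beyond the gene, held 969 WT counts and 391 TCKO counts, a ratio of -0.59 (-0.76 to -0.42). The gene with the 2 kb before its start gave 0.00 (0.0044 before rounding). The 4 upstream regions with most WT counts all had intervals below 0. The region 33.2 kb upstream held 1605 WT counts and 759 TCKO counts, a ratio of -0.36 (-0.49 to -0.24), and the one at 50.5 kb held 1472 and 443, a ratio of -1.01 (-1.17 to -0.86). The one at 69.3 kb held 1069 and 515, a ratio of -0.34 (-0.49 to -0.18), and the one at 80.8 kb held 955 and 342, a ratio of -0.76 (-0.94 to -0.59). The fold over local background did not fall at 50.5 kb, with 8.61 in WT and 10.28 in TCKO, or at 69.3 kb, with 6.63 and 6.73. It was 4.68 and 3.92 at 33.2 kb, and 8.78 and 5.94 at 80.8 kb.

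The upstream flank was not uniform, since the region 16 kb upstream held 880 and 683 counts and a ratio of 0.35 (0.21 to 0.50). The largest fall lay 62.0 kb upstream, with 105 WT counts and 25 TCKO counts and a ratio of -1.33 (-1.98 to -0.73), was called in WT only, and held a TEAD motif and 2 CpGs in the 139 bases printed above. The next region, 62.9 kb upstream, held 529 and 319, a ratio of -0.01 (-0.21 to 0.19). The 10 regions nearest to the start of *Eps8l3*, a member of the Eps8 family, summed to a ratio of -0.41 (-0.48 to -0.34), and the 28 regions nearest to *Csf1* itself to -0.25 (-0.29 to -0.21). The region with most WT counts, 2172 against 1115 in TCKO, was the promoter of *Ahcyl1*, a neighbouring gene, and the largest rise was a region 27.0 kb after the start with 84 and 104 counts that was called in TCKO only.

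**Figure D4:**
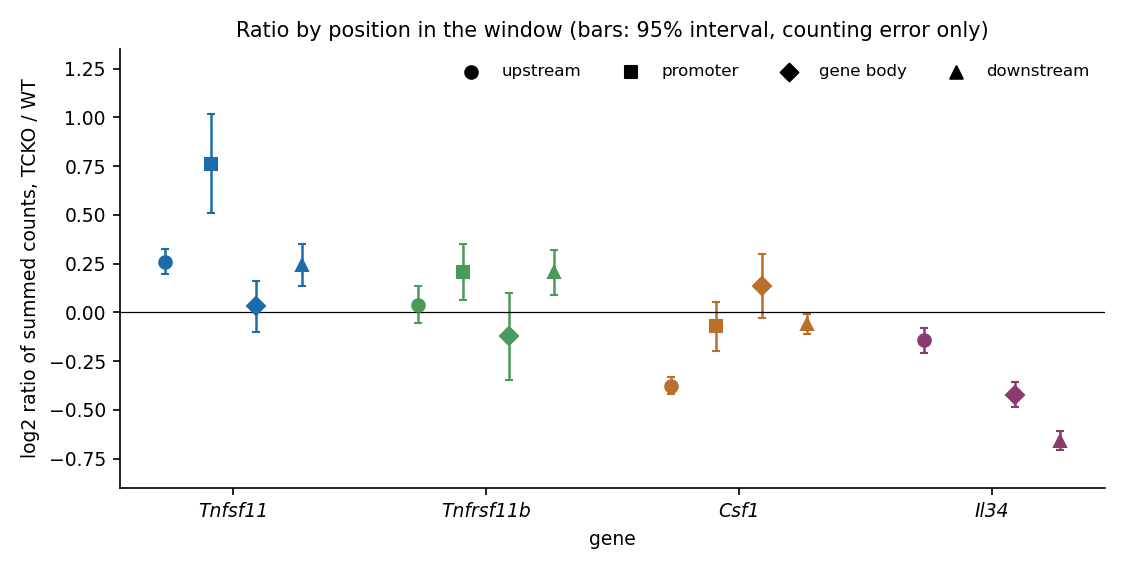
Log2 ratio of summed counts, TCKO over WT (y axis), by gene (x axis) and position, where promoter means within 1 kb of a start and gene body means the rest of the gene, with bars for 95% intervals from counting error. The *Tnfsf11* promoter at 0.76 is the highest point, the *Il34* downstream flank at -0.66 is the lowest, and *Csf1* is lowest upstream at -0.38.

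*Il34* (ENSMUSG00000031750) lies on the minus strand of chromosome 8, from 110741829 to 110805924, and its window had the lowest ratio of the 4. No region lay within 1 kb of any coding *Il34* transcript start, and the nearest upstream region, at 2.8 kb, held 1114 WT counts and 607 TCKO counts, a ratio of -0.16 (-0.30 to -0.02). Inside the gene the 14 regions summed to 6295 and 2856, a ratio of -0.42 (-0.49 to -0.36). The region 12.1 kb after the start held 1252 and 384, a ratio of -0.99 (-1.15 to -0.82), the one at 16.5 kb 1457 and 627, a ratio of -0.50 (-0.63 to -0.36), and the one at 4.9 kb 351 and 108, a ratio of -0.98 (-1.29 to -0.67). A region 11.1 kb after the start, next to the first of these, held 588 and 367, a ratio of 0.04 (-0.15 to 0.23).

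Much of the *Il34* window belongs to other genes by distance. Only 15 of its 55 regions, with 36.7% of the WT counts, had *Il34* as the nearest start, and these gave a ratio of -0.38 (-0.43 to -0.32). The downstream flank, which runs through *Vac14*, a scaffold of phosphoinositide metabolism, and *Mtss1l*, a membrane-shaping protein gene, gave 11255 WT counts and 4341 TCKO counts, a ratio of -0.66 (-0.71 to -0.61). The upstream flank gave -0.14 (-0.21 to -0.08). The region with most WT counts, in a *Vac14* intron 89.7 kb after the *Il34* start, held 2581 and 922, a ratio of -0.77 (-0.88 to -0.66). Its fold over local background did not fall, with 5.97 in WT and 6.15 in TCKO.

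The largest fall of the *Il34* window was a 611 bp region in another *Vac14* intron, chr8:110663048-110663658, with 569 WT counts and 137 TCKO counts, a ratio of -1.33 (-1.61 to -1.07), and it was called in WT only. Its neighbour 141.2 kb after the *Il34* start held 980 and 241, a ratio of -1.30 (-1.51 to -1.10). The printed central 300 bases of the first held a Runt core and 3 CpGs. The largest rise was a region in an exon of *Fuk*, a fucose kinase gene, with 35 WT counts and 68 TCKO counts and a ratio of 1.65 (1.09 to 2.26), called in TCKO only.

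The windows also differed in base composition, which the rule did not use. The median region held 0.360 CpGs per 100 bp at *Tnfrsf11b*, 0.974 at *Csf1*, 1.01 at *Il34* and 1.05 at *Tnfsf11*, against 1.02 over all regions. The bZIP motif was found in the central 200 bp of 37.5% of the *Tnfsf11* and 38.7% of the *Tnfrsf11b* regions, of 17.9% of the *Csf1* and 14.5% of the *Il34* regions, and of 22.4% of all regions. The Runt core was found in 24.7% of the members and 20.3% of all regions, and the TEAD motif in 19.2% and 14.8%. The cyclic AMP response element and the direct repeat were found in 0 members, beside 0.371% and 0.534% of all regions.

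Members with a bZIP motif had a median ratio of 0.12 and those without it -0.13, where all regions had 0.42 and -0.02. The regions that held the motif had a median ratio of 0.32 over 15 *Tnfsf11* regions, 0.28 over 12 *Tnfrsf11b* regions, -0.25 over 10 *Csf1* regions and -0.17 over 8 *Il34* regions. For the Runt core the medians were -0.06 with and -0.08 without it among the members, and 0.08 and 0.06 among all regions. Of the 10 lower members 4 held a Runt core and 1 a bZIP motif, and of the 7 higher members 0 and 3 did. Over all regions 20.3% held the Runt core and 22.4% the bZIP motif. The shares among all regions past the fold were not computed, and these member counts are small. These are descriptions of letters in the sequence, and no binding was measured here.

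Genes of the same signalling circuit were described from a list of 15, which comprised receptors on osteoclast precursors, receptors through which hormones and cytokines act on osteoblasts, and other secreted osteoblast factors. Their windows had a median ratio of -0.03, with 9 below 0 and 6 above. Of the windows of all 20814 protein-coding genes, 55.5% were below 0, and their median was -0.02. The range ran from -0.13 at *Il11*, a cytokine gene, to 0.26 at *Tnfrsf11a*, which encodes RANK, so *Csf1* and *Il34* lay below every window of the list. Of their 661 regions, 27 were at least 2-fold lower, which is 4.08% beside 4.51% of all regions, and 50 at least 2-fold higher, which is 7.56% beside 12.3%. The window of *Csf1r*, the receptor that M-CSF and IL-34 share, had a ratio of -0.03 (-0.07 to 0.00), while its promoter region, with 90 WT counts and 110 TCKO counts, had 1.01 (0.61 to 1.41). That promoter region covers 145 bp, and *Csf1r* is also among the macrophage or osteoclast markers above. The part of such cells in this value was not tested. The promoters of *Vdr* and *Pth1r*, the receptors for vitamin D and parathyroid hormone, had ratios of -0.02 (-0.14 to 0.11) and 0.17 (-0.02 to 0.35). Intervals clear of 0 were also found at *Il6*, -0.38 (-0.52 to -0.24), *Ccl2*, -0.23 (-0.39 to -0.06), and *Il11ra1*, -0.15 (-0.25 to -0.04). The *Il11* promoter had 0.61 (0.42 to 0.80), unlike its window. The intervals of the other promoters in the list held 0, and all 15 genes together gave -0.02 (-0.06 to 0.02).

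The sign of the *Tnfsf11* and *Tnfrsf11b* ratios depended on the scaling, and their order did not. With the depth taken from the peak caller's background, all regions had a median of -0.54, and the windows of *Tnfsf11*, *Tnfrsf11b*, *Csf1* and *Il34* had -0.37, -0.50, -0.83 and -1.07. Without scaling the median was -0.64 and the windows had -0.48, -0.61, -0.94 and -1.18. Relative to the median of all regions *Tnfsf11* and *Tnfrsf11b* were above it and *Csf1* and *Il34* below it under all 6 scalings. For *Tnfrsf11b* this lay within counting error under total-count scaling, since its interval of 0.04 to 0.17 held the median of 0.06. Of its 31 regions, 13 were below that median. The scalings other than loess are constant factors, which shift the windows and the median alike. Only loess could therefore have changed the order or these positions, and it did not. The *Tnfsf11* promoter had a ratio above 0 under all 6, at 0.15 with the peak caller's background and 0.05 without scaling, but its interval held 0 under those settings.

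**Figure D5:**
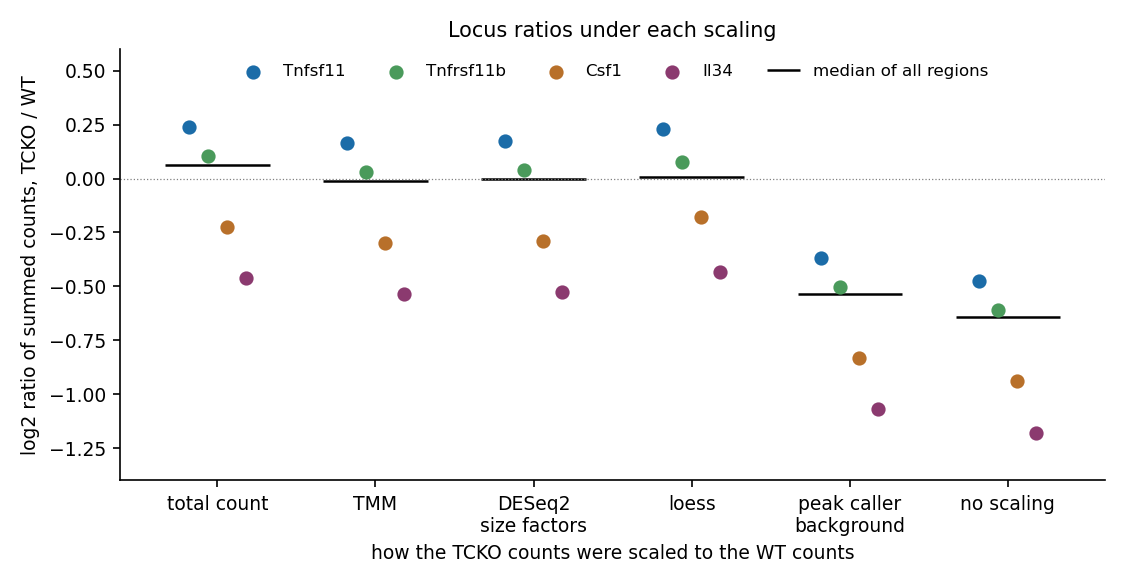
Log2 ratio of summed counts, TCKO over WT (y axis), of the 4 windows under 6 ways of scaling TCKO to WT (x axis), with a horizontal bar at the median of all regions. The order of the genes is the same throughout, from *Tnfsf11* at the top to *Il34* at the bottom, and the bar lies between *Tnfrsf11b* and *Csf1*. Only loess could change this, since the other settings are constant factors.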

How the data were processed

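ATAC-seq was carried out on WT and TCKO primary osteoblasts, with 2 samples listed per genotype. Per the labels and the study's methods, the authors aligned reads with STAR (2.7.0e) to GRCm38, kept unique alignments, pooled replicates by genotype and ran MACS2 for peaks. They deposited raw read counts per region, 1 merged column per genotype, and peak lists whose columns give a fold over local background and the −log10 of its p-value. The q-values and display scores of these lists were not used. No other column of sample values was present. Duplicate removal was not given in the sources used here.

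From these files the TCKO counts were scaled to the WT total, and regions past a fold of 2 were tallied. The study also used a 2-fold cutoff, but on the relative enrichment of peaks, which is a different measure. It reported more regions closing than opening in TCKO, whereas 4.51% of all regions were lower and 12.3% higher in this tally. That direction depended on the scaling. Without scaling 25.6% were lower and 3.17% higher, and with the peak caller's background 19.9% and 3.91%, so more regions were lower, as the study reported. The total counts set the precision. PCR reads are not independent molecules, so intervals cover counting error only. The planned fit by edgeR's quasi-likelihood test was not run, because replicates were merged. Alternative factors came from TMM (edgeR 4.0.16), size factors (DESeq2 1.42.0, R 4.3.3), loess (statsmodels 0.14.6, span 0.3) and the background solved from the peak caller's fold and p-value. The other tools were scipy 1.17.1, pandas 2.3.3, numpy 2.4.6 and Python 3.11.15. The steps were tested on counts simulated with counting error only for 255864 regions. They found all 200 regions changed 4-fold, which were drawn from those with a mean of at least 50 counts. Of the intervals of the 192160 unchanged regions at that depth, 94.9% covered the true ratio. Sparser regions and the spread between replicates were not covered by this test.

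Regions named for each gene by rule were promoter regions, the region with most WT counts, the largest fall and rise among regions reaching 50 counts in either genotype, and the known *Tnfsf11* enhancer places. The regions 1.1, 2.0, 13.5, 25.5, 44.5 and 90.1 kb from the *Tnfsf11* start were chosen after their values were seen, as were that of *Tnfrsf11b* at 81.2 kb, those of *Csf1* at 16, 20.6, 33.2, 50.5, 62.9, 69.3 and 80.8 kb and those of *Il34* at 2.8, 4.9, 11.1, 12.1, 16.5 and 141.2 kb. The members and lists were chosen with earlier results of these data known.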

Additional observations from a re-analysis of the deposited data

How the results depend on the processing

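No paired analysis was possible because replicates were merged within each genotype, and neither the omission of single replicates nor the edgeR and DESeq2 tests could be run. The ratios of *Tnfsf11*, *Tnfrsf11b*, *Csf1* and *Il34* were 0.17, 0.031, -0.30 and -0.54 under TMM and 0.18, 0.041, -0.29 and -0.53 under DESeq2 size factors, -0.37, -0.50, -0.83 and -1.07 with the peak caller's background, and -0.48, -0.61, -0.94 and -1.18 without scaling, so the first 2 genes turned negative under the last 2 settings. Loess moved *Csf1* to -0.18. For the gene and 2 kb before its start the ratios were 0.18 for *Tnfsf11*, 0.0044 for *Csf1*, which turned its sign, and -0.42 for *Il34*. With 25 kb on either side *Csf1* had -0.094 and *Il34* -0.37, and with only the regions nearest to its own start *Il34* had -0.38. These settings keep fewer regions.

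The count of lower members was 10, and became 68 without scaling, 59 with the peak caller's background, 43 at a fold of 1.5, 0 at a fold of 3, 2 with the whole interval past a fold of 2, 3 within 25 kb, 1 in the gene and 2 kb before its start, and 4 among regions nearest to the member. The count of higher members was 7, and became 2, 3, 22, 3, 3, 2, 0 and 4 under these settings and 4 with 10 counts added. Between genes, *Tnfsf11* minus *Csf1* was 0.32 within 25 kb and 0.17 in the gene and 2 kb, *Tnfsf11* minus *Il34* 0.60 in both and 0.62 among nearest regions, *Tnfrsf11b* minus *Csf1* 0.26 under loess, 0.20 within 25 kb, 0.10 in the gene and 2 kb and 0.41 among nearest regions, *Tnfrsf11b* minus *Il34* 0.48 within 25 kb, and *Csf1* minus *Il34* 0.43 in the gene and 2 kb and 0.13 among nearest regions. *Tnfsf11* minus *Tnfrsf11b* was 0.0705 in the gene and 2 kb and 0.0852 among nearest regions. No pair changed direction. Intervals are not given for these settings, so the smaller differences may lie within counting error.

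Of the 23 named regions, those of *Tnfsf11* at 61.1, 68.2 and 76.5 kb upstream turned to -0.14, -0.11 and -0.47 without scaling and to -0.035, -0.0049 and -0.37 with the peak caller's background, the one at 69.5 kb to -0.053 without scaling only, and the main *Tnfrsf11b* promoter region to -0.48 and -0.37. Regions whose intervals already held 0 also turned under these 2 settings, to -0.63 and -0.52 for *Tnfsf11* 22.5 kb upstream, -0.27 and -0.17 for 59.9 kb, and -0.66 and -0.56 for the second *Tnfrsf11b* promoter region. All 23 stayed within their intervals under TMM, DESeq2 size factors and 10 counts added. Depth limits regions below about 50 counts most, where intervals span over a fold of 2.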
